A study of Mus musculus with 22 samples.

Results

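The 10 genes described here encode the core of the circadian clock and its best known output: *Arntl*, *Clock*, *Npas2*, *Per1*, *Per2*, *Per3*, *Cry1*, *Nr1d1*, *Nr1d2* and *Dbp*. They were chosen by name from the 55487 genes counted in interscapular brown adipose tissue (BAT) of 22 mice. Earlier results of these data were known when the choice was made. All 10 carried a single gene identifier, were counted in both cohorts and passed the filter on low counts in both. None of the 10 passed a false discovery rate (FDR) of 0.05 between groups in any of 8 comparisons. The mice nevertheless differed widely in *Arntl* and *Dbp*: in both cohorts, mice high in *Arntl* were low in *Dbp*. In the untreated cohort this relation rested in part on the mice with the most extreme *Arntl*. Across the 22 libraries, genes outside the 10 were as closely related to either gene. The 10 genes as a set did not vary more there than all genes tested.

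The untreated cohort held 5 CPEB2-WT (WT) and 5 CPEB2-KO (KO) mice aged 21 to 25 weeks. KO mice lack CPEB2, an RNA-binding protein that controls mRNA translation, in the whole body, and came with their WT mice from heterozygous crosses on a C57BL/6 background. In the AAV cohort, WT and KO mice were injected into BAT at 16 weeks with an adeno-associated virus (AAV) carrying GFP or flag-tagged PRDM16, a transcriptional regulator of brown fat, and BAT was taken 9 weeks later. The 4 groups of 3 mice are named by genotype and virus, from WT + AAV-GFP to KO + AAV-PRDM16. Lights were on from 8 to 20 h, the chow held 9% fat, all mice are labelled male, and the untreated mice were food-deprived for some hours before collection. The sources used here give no hour of collection, so the clock genes are read as a description of whether the groups may have been sampled at unlike phases of the clock. Separate mice make up each group. P-values of the group comparisons set the difference between groups against the spread between mice. Those of the correlations come from permuting the pairing of 2 genes over mice.

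The untreated libraries held 55320927 to 162721202 counts each and the AAV libraries 61636889 to 143005309. Some untreated libraries stood apart. Of the 10, 6 held under 10 CPM (counts per 1000000, after TMM scaling for library composition) of Y-linked transcripts, although labelled male (WT mice 3 and 5 and KO mice 1, 3, 4 and 5). The same 6 held 104 to 305 CPM of *Xist*, a transcript of female cells, against at most 14.0 CPM in the other untreated libraries. WT mouse 4 held these 14.0 CPM beside 116 CPM of Y-linked transcripts. Sex, read in this way, was unequal between the genotypes, so sex and genotype cannot be fully told apart in the untreated comparisons below. *Cpeb2* in KO mouse 1, at 11.7 CPM, lay inside the WT range of 7.69 to 14.3 CPM, so that library is named below as the library labelled KO mouse 1. All other KO libraries in both cohorts held 2.10 to 5.78 CPM of *Cpeb2*. Summed over 10 skeletal muscle markers, the untreated WT mice ranged from 16.4 to 3333 CPM and the KO mice from 8.56 to 6513 CPM, against at most 107 CPM in the AAV cohort. The 9 brown adipocyte markers were high in every library, with sums of at least 3913 CPM.

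As background, the clock of a mouse cell is a feedback loop. ARNTL (also called BMAL1) pairs with CLOCK or NPAS2 and activates genes through E-box sequences, among them the *Per* and *Cry* genes, whose proteins return to inhibit the pair. The same pair drives *Nr1d1* and *Nr1d2*, which encode the REV-ERB repressors of *Arntl*, and *Dbp*, an activator that binds D-box sequences. In mouse peripheral tissues *Arntl* and *Dbp* are known to peak at opposite phases of the day, and brown fat has such a clock.

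The promoter stretches that hold letters known to be bound by these factors are shown for the members in which they were found. RefSeq promoters (GRCm38.p6, 250 bases before to 50 after a transcript start) were found for 9 of the 10 genes, for 13 starts in all, with no entry for *Per2*. They were searched on both strands for the E-box CACGTG, the E-prime box CACGTT and the D-box TTATGTAA. In the sequences below, read 5′ to 3′ along the strand of the gene with 12 bases on either side, capitals mark the match.
Per1, chr11:69098771-69098800, plus strand, E-box: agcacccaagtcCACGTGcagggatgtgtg
Nr1d1, chr11:98775388-98775417, minus strand, E-prime box read on the opposite strand: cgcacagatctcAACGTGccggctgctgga
Cry1, chr10:85185097-85185145, minus strand, E-prime box on the opposite strand and then E-box: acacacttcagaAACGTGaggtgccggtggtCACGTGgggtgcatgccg
Per3, chr4:151044804-151044882, minus strand, a pair of D-boxes: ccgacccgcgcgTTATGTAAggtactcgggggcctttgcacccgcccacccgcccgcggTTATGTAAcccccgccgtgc
Of all 32851 promoters in the table, 7.15% held the E-box, 4.68% the E-prime box and 0.938% the D-box. Among the 9 clock genes with a promoter, 2 held the E-box, 2 the E-prime box and 1 the D-box. These are counted per gene over the 13 starts, while the shares are per promoter. A match is a run of letters and not a measured site, and no match in this window says nothing of sites elsewhere.

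Per kilobase of exon, the REV-ERB gene *Nr1d1* had the highest level of the 10 and the activators *Arntl* and *Npas2* the lowest, in both cohorts. *Nr1d1* averaged 29.1 ± 13.0 CPM per kb (SD, n = 10) in the untreated cohort and 34.8 ± 6.89 (SD, n = 12) in the AAV cohort. *Arntl* averaged 0.278 ± 0.156 and 0.293 ± 0.153 CPM per kb, and *Npas2* 0.0723 ± 0.0372 and 0.0753 ± 0.0520. In the untreated cohort the order below *Nr1d1* was *Per1*, *Dbp*, *Nr1d2*, *Per2*, *Per3*, *Clock* and *Cry1*. *Dbp* and *Nr1d2* were not separated there, since *Dbp* had the higher level per kb in 3 of 10 libraries despite its higher mean. Among the AAV mice the order was *Nr1d2*, *Dbp*, *Per1*, *Clock*, *Per3*, *Per2* and *Cry1*. *Nr1d2* and *Dbp* were not separated there either, with *Nr1d2* higher per kb in 7 of 12 libraries, nor were *Clock* and *Per3*, with *Clock* higher per kb in 6 of 12 libraries.

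**Figure D1:**
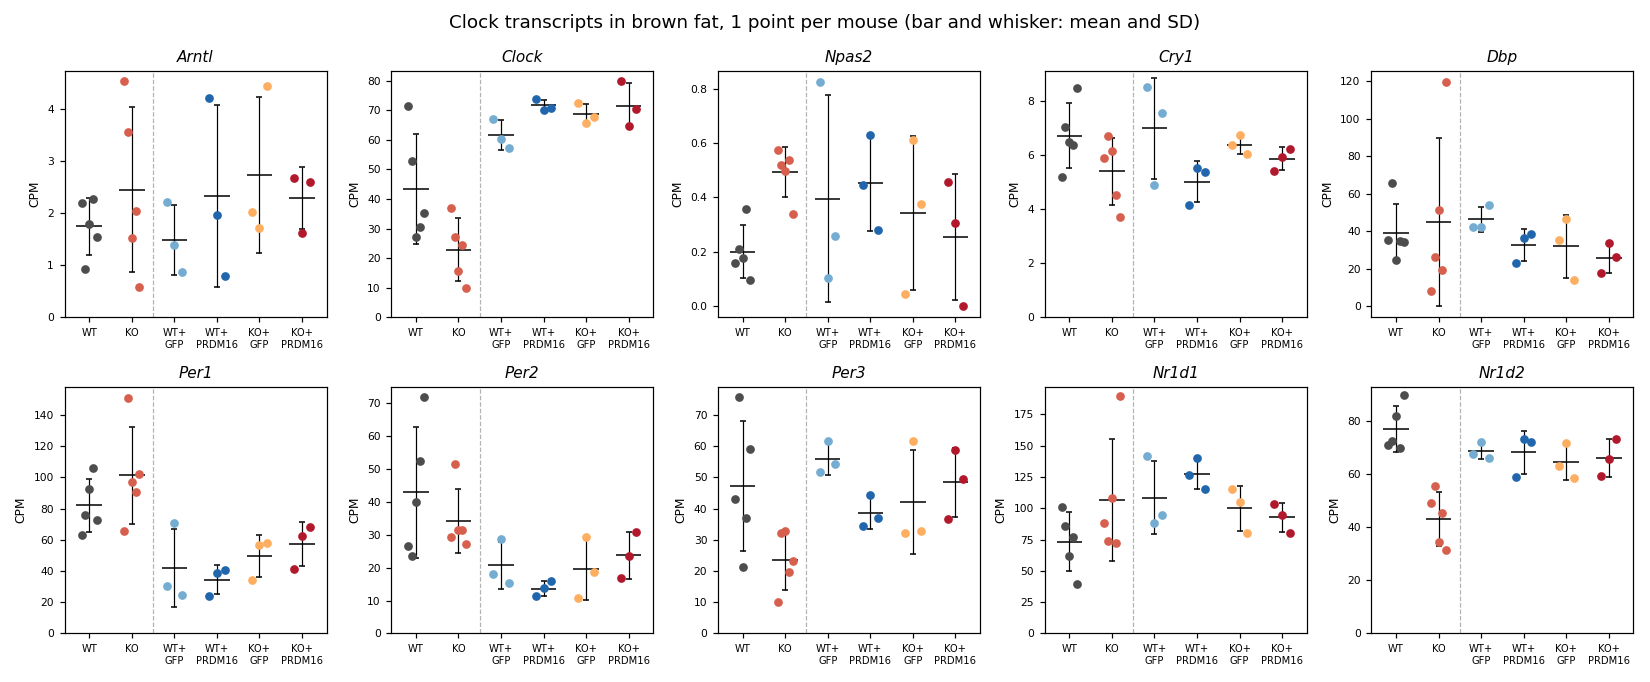
Each panel plots 1 clock gene in CPM, 1 point per mouse, in the 6 groups (dashed line: untreated cohort to the left, AAV cohort to the right; bar and whisker: mean and SD). *Nr1d2* is the panel in which the untreated KO mice, at 31.2 to 55.6 CPM, all sit below the WT mice, at 69.7 to 89.8 CPM, while *Dbp* in untreated KO mice spans 8.14 to 120 CPM.

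The activators come before the others. *Arntl* in the untreated WT mice 1 to 5 was 2.19, 0.919, 1.79, 2.27 and 1.54 CPM. In KO mice 1 to 5 it was 4.53, 3.55, 1.51, 2.05 and 0.589 CPM. The KO mice thus held both the highest and the lowest values, and the groups overlapped, with means of 1.74 ± 0.547 in WT and 2.44 ± 1.59 CPM in KO (SD, n = 5). With AAV, *Arntl* was 2.21, 1.38 and 0.868 CPM in WT + AAV-GFP and 4.21, 1.97 and 0.781 CPM in WT + AAV-PRDM16. It was 2.03, 1.70 and 4.44 CPM in KO + AAV-GFP and 2.68, 1.61 and 2.59 CPM in KO + AAV-PRDM16. All 4 of these groups overlapped. The antisense gene *Gm45355* shares 33 exon bases with *Arntl*, 0.439% of its exons.

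*Clock*, the usual partner of ARNTL, was 71.6, 53.0, 27.0, 30.4 and 35.1 CPM in untreated WT mice. It was 37.1, 27.3, 15.6, 24.5 and 9.87 CPM in KO mice. The log2 fold change of KO against WT was -0.93 (SE 0.375, edgeR quasi-likelihood test, unadjusted P = 0.0285, adjusted P = 0.305). WT mice 1 and 2, which hold the highest values, also differ from the other WT mice in *Fkbp5*, a glucocorticoid-responsive gene described below. They were lowest of the untreated mice in the D-box factor *Nfil3* too, at 12.1 and 9.36 CPM against 36.6 to 91.3 CPM. The glucocorticoid-responsive *Zbtb16* and *Tsc22d3* were likewise lowest in them. WT mice 1 and 2 also held the most Y-linked transcripts of the untreated mice, at 193 and 191 CPM against at most 116 CPM. The part of any of these differences in the *Clock* values was not tested. Without WT mice 1 and 2 the log2 fold change of *Clock* was -0.39. *Clock* in the AAV mice was among the steadiest genes, between 57.4 and 79.9 CPM over all 12 mice. *Npas2*, which can replace *Clock*, stayed below 1 CPM in every library, from 0.0958 to 0.358 CPM in untreated WT and from 0.338 to 0.573 CPM in untreated KO mice. Its counts in the AAV cohort ran from 0 to 92 reads, and KO + AAV-PRDM16 mouse 3 had none, so that its fold changes there rest on few reads.

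The repressors of the loop are the *Per* and *Cry* genes. *Per1*, which light, cyclic AMP and glucocorticoids are also known to induce, ranged from 63.0 to 106 CPM in untreated WT and from 65.5 to 151 CPM in untreated KO mice. Its untreated groups overlapped. *Per2* was 26.7, 23.5, 39.9, 52.3 and 71.7 CPM in untreated WT and 29.3, 51.4, 31.5, 31.5 and 27.2 CPM in untreated KO mice. *Per3*, the *Per* gene that carries the pair of D-boxes above, was 43.0, 75.7, 21.3, 36.9 and 59.2 CPM in untreated WT and 10.0, 32.1, 33.0, 19.6 and 23.3 CPM in KO mice. Its KO mean of 23.6 ± 9.51 CPM stood against 47.2 ± 20.9 CPM in WT (SD, n = 5), with overlap through WT mouse 3. *Cry1*, the partner of the PER proteins, kept to 3.72 to 8.47 CPM over the untreated mice and 4.14 to 8.51 CPM over the AAV mice.

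The REV-ERB genes behaved unlike each other in the untreated cohort. *Nr1d2* in WT mice was 70.7, 72.3, 81.8, 69.7 and 89.8 CPM. In KO mice it was 49.0, 55.6, 34.5, 45.2 and 31.2 CPM, each of them below every WT mouse. The log2 fold change was -0.83 (SE 0.218, unadjusted P = 0.00223), and the edgeR adjusted P of 0.305 did not pass the threshold. No gene had a lower adjusted P in this comparison. Leaving out the library labelled KO mouse 1 gave a log2 fold change of -0.89 and an adjusted P of 0.160, and fitting a term for Y-linked transcripts gave -0.82 and 0.576 in edgeR. Its paralog *Nr1d1* was 101, 85.5, 62.2, 76.9 and 39.3 CPM in untreated WT and 88.6, 73.6, 108, 72.3 and 189 CPM in KO mice, with overlap. *Nr1d1* shares 263 exon bases, 8.55% of its exons, with *Thra* on the opposite strand, and the sources used here do not say whether counting used strand.

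*Nr1d2* in the AAV cohort lay between 58.3 and 73.3 CPM in all 12 mice, and the log2 fold change of KO against WT was -0.09 (SE 0.117) with AAV-GFP and -0.05 (SE 0.118) with AAV-PRDM16. No test across the cohorts was made, so the difference between these values and the -0.83 of the untreated mice was not tested.

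*Dbp*, the output gene, showed the widest spread of the 10 in the untreated cohort. It was 35.5, 66.0, 24.9, 34.8 and 34.4 CPM in untreated WT and 8.14, 26.2, 51.2, 19.2 and 120 CPM in untreated KO mice, a 14.7-fold range over the 10 mice. The KO mice lay on both sides of the WT mice, with means of 44.9 ± 44.7 in KO and 39.1 ± 15.7 CPM in WT (SD, n = 5) and a log2 fold change of 0.20 (SE 0.571). Among the AAV mice *Dbp* was 42.5, 42.5 and 54.1 CPM in WT + AAV-GFP and 23.1, 36.2 and 38.7 CPM in WT + AAV-PRDM16. It was 35.4, 46.9 and 13.8 CPM in KO + AAV-GFP and 17.8, 34.0 and 26.4 CPM in KO + AAV-PRDM16. All 3 WT + AAV-GFP mice thus lay above the WT + AAV-PRDM16 mice, while the KO groups overlapped. *Dbp* shares 539 exon bases, 18% of its exons, with *Sphk2* on the opposite strand.

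The spread between mice of a group set some members apart from the rest. Within groups, the SD of log2 CPM was 1.10 for *Dbp* and 0.89 for *Arntl* in the untreated cohort, at the 81.4th and 73.6th percentile of the genes tested, while *Nr1d2* had 0.27 and lay at the 5.22nd percentile. In the AAV cohort it was 0.56 for *Dbp* (71.8th percentile) and 0.80 for *Arntl* (82.0th percentile) but 0.11 for *Clock* (7.07th percentile). *Npas2*, with few reads, had the widest spread there, an SD of 1.72 at the 98.6th percentile. The median over the 10 genes was 0.54 for untreated and 0.42 for AAV mice, beside 0.59 and 0.30 over all genes tested.

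*Arntl* and *Dbp* moved in opposite directions from mouse to mouse. In the untreated cohort the highest *Arntl* and the lowest *Dbp* were both in the library labelled KO mouse 1, and the lowest *Arntl* and the highest *Dbp* were both in KO mouse 5. Over the 10 untreated mice Pearson's r of log2 CPM was -0.90 (permutation test, P = 0.00082, adjusted over 6 correlations 0.00492) and Spearman's rho -0.73 (permutation test, P = 0.0209, adjusted 0.0628). Centred on the group means, with pairings permuted within groups, r was -0.90 (exact P = 0.00667). Without these mice, which are the 2 farthest from the median *Arntl*, r was -0.69 (exact P = 0.0576), so that in this cohort the relation rests in part on them. Without the library labelled KO mouse 1 alone it was -0.86, and without WT mice 1 and 2 it was -0.90.

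The AAV cohort, which shares no mouse with the untreated one, gave the same direction. Over its 12 mice r was -0.79 (permutation test, P = 0.00219, adjusted 0.00657) and rho -0.79 (permutation test, P = 0.00339, adjusted 0.0203). Centred within the 4 groups r was -0.76 (exact P = 0.000772). Without the 2 mice farthest from the median *Arntl*, mouse 3 of WT + AAV-GFP and mouse 3 of WT + AAV-PRDM16, r was -0.84 (permutation test, P = 0.0029). Skeletal muscle markers summed to 5887 CPM in the library labelled KO mouse 1 and 1117 CPM in KO mouse 5. In the AAV cohort, where the relation held with muscle sums of at most 107 CPM, KO + AAV-GFP mouse 3 had the highest *Arntl* and the lowest *Dbp* and a muscle sum of 3.27 CPM. Immune markers were high in some mice at the high *Arntl* end of the slope and not in others. Summed over 7 macrophage markers, the library labelled KO mouse 1 had the highest level of the untreated cohort, at 418 CPM against 39.2 to 323 CPM in the others, and KO + AAV-GFP mouse 3 the highest of the AAV cohort, at 334 CPM against 37.9 to 145 CPM. At the other end, KO mouse 5 had 91.6 CPM. KO + AAV-GFP mouse 3 also had the highest sum over 10 lymphocyte markers, 25.6 CPM against 1.09 to 16.6 CPM in the other AAV mice, while the library labelled KO mouse 1 had 2.77 CPM within an untreated range of 1.09 to 5.82 CPM. WT + AAV-PRDM16 mouse 1 had the next highest *Arntl* of the AAV cohort, at 4.21 CPM. Its macrophage sum of 37.9 CPM was the lowest of that cohort, and its lymphocyte sum was 1.82 CPM. The part of these cells in the relation was not tested.

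**Figure D2:**
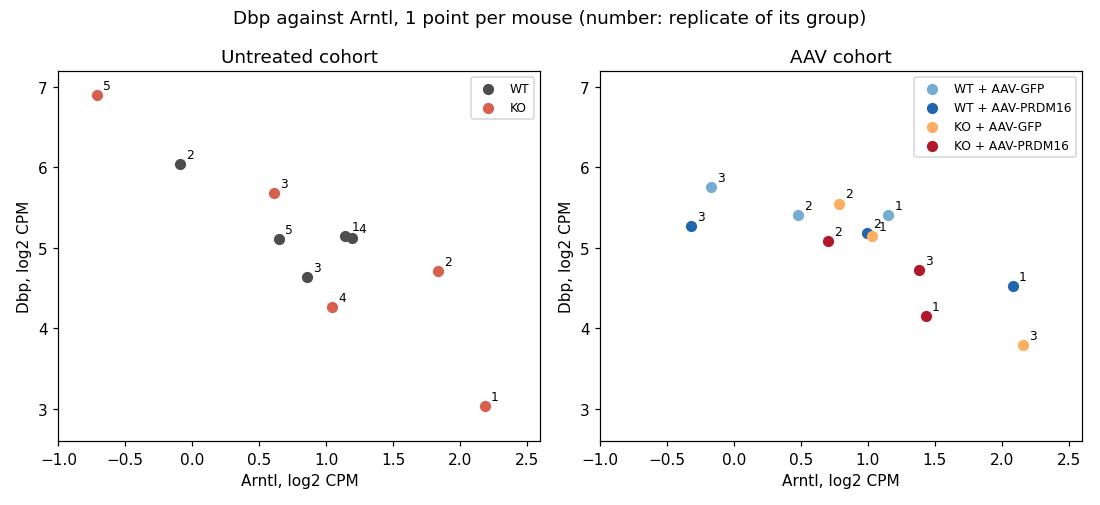
*Dbp* against *Arntl*, both in log2 CPM with a prior count of 2, for the 10 untreated mice (left) and the 12 AAV mice (right), 1 point per mouse coloured by group and numbered by replicate. The points fall from upper left to lower right in both panels, with r = -0.90 and -0.79, and the WT and KO colours are mixed along the slope.

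The other relations tested did not pass. *Arntl* against *Nr1d1* gave r = -0.41 (permutation test, P = 0.234, n = 10) for untreated and -0.04 (permutation test, P = 0.908, n = 12) for AAV mice. *Arntl* against *Npas2*, a gene that rises and falls with it in many tissues, gave 0.36 (permutation test, P = 0.311) and 0.04 (permutation test, P = 0.902). With so few reads on *Npas2*, the last pair says little.

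The log2 ratio of *Dbp* to *Arntl* places each mouse along this slope. It averaged 4.46 ± 0.97 in untreated WT and 3.92 ± 2.55 in untreated KO mice (SD, n = 5), with the KO mice between 0.84 and 7.62 and the WT mice between 3.78 and 6.14. Over the AAV mice it averaged 5.04 ± 0.84 in WT + AAV-GFP, 4.08 ± 1.58 in WT + AAV-PRDM16, 3.50 ± 1.65 in KO + AAV-GFP and 3.48 ± 0.84 in KO + AAV-PRDM16 (SD, n = 3). Within each cohort, the range inside every group was larger than the difference between any of these means. No P is given for this ratio, since it was built from genes already seen to vary.

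The group comparison in the untreated cohort asked whether loss of CPEB2 goes with other clock transcript levels. Its groups differ also in the Y-linked and *Xist* transcripts given above. No clock gene was called at an FDR of 0.05, where 0% of the 17869 genes tested were called. The lowest edgeR adjusted P of any gene was 0.305, a value that many genes shared. At an unadjusted P under 0.05 edgeR marked 4 of the 10, *Nr1d2*, *Npas2*, *Per3* and *Clock*, where 15.9% of all genes were marked. *Npas2* had a log2 fold change of 1.29 (SE 0.482, unadjusted P = 0.0194) and *Per3* of -1.0 (SE 0.378, unadjusted P = 0.0205), both with an adjusted P of 0.305. At the looser threshold of the study's analysis, a fold change of 2 or more with an FDR up to 0.5, *Npas2* and *Per3* were called, where 10.8% of all genes were. Groups that did not overlap were seen for *Nr1d2* alone of the 10, where 1.4% of all genes did not overlap. The median log2 fold change of the 10 was -0.06, beside 0.04 over all genes, with 5 members above and 5 below 0. DESeq2 and limma-voom called none of the 10 at 0.05.

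With AAV-GFP, no clock gene passed an FDR of 0.05 or had an unadjusted P under 0.05 between KO and WT mice in edgeR, where 0.0529% and 9.18% of 18899 genes were marked. None of the 10 had groups that did not overlap, where 13.4% of all genes had. The largest change was that of *Arntl*, with a log2 fold change of 0.88 (SE 0.554, adjusted P = 0.697). The median was -0.10, beside 0.01 over all genes.

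With AAV-PRDM16, KO mice had the higher *Per1* and *Per2* and the lower *Nr1d1*, each without overlap, where 22.8% of all genes did not overlap. *Per2* was 16.7, 23.6 and 30.8 CPM in KO + AAV-PRDM16 and 11.3, 13.7 and 15.9 CPM in WT + AAV-PRDM16. Its log2 fold change was 0.79 (SE 0.342, unadjusted P = 0.0381, adjusted P = 0.328). *Per1* was 41.4, 62.4 and 68.1 CPM against 23.8, 38.8 and 40.9 CPM, a log2 fold change of 0.73 (SE 0.369, unadjusted P = 0.0705). *Nr1d1* was 103, 94.9 and 80.3 CPM against 127, 140 and 115 CPM, a log2 fold change of -0.46 (SE 0.186, unadjusted P = 0.0293, adjusted P = 0.304). No member passed an FDR of 0.05 in edgeR, which 0.0476% of all genes passed, and 2 had an unadjusted P under 0.05, which 13.7% of all genes had. The median log2 fold change was -0.01, beside 0.01 over all genes.

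**Figure D3:**
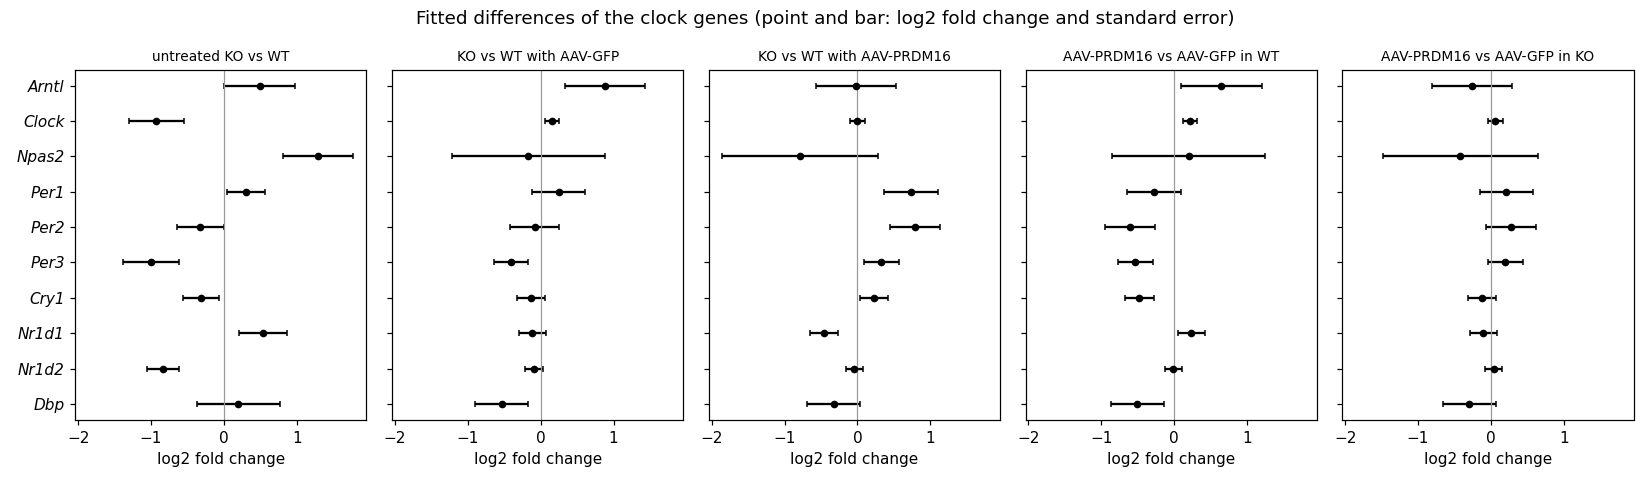
Fitted log2 fold changes of the 10 clock genes (points) with their standard errors (bars) from edgeR, 1 panel for each of 5 group comparisons. Most bars reach or come near 0, *Nr1d2* in the untreated cohort lies at -0.83 with a standard error of 0.218, and the wide bars of *Npas2* in the AAV panels reflect counts from 0 to 92 reads.

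The virus comparisons asked what added PRDM16 went with. *Prdm16* was 122, 119 and 45.9 CPM in WT + AAV-PRDM16, against 23.9, 40.2 and 35.8 CPM in WT + AAV-GFP. In KO mice it was 69.2, 128 and 73.6 CPM with AAV-PRDM16, against 31.7, 34.5 and 31.7 CPM with AAV-GFP. WT + AAV-PRDM16 mouse 3 thus held little more *Prdm16* than the highest AAV-GFP mouse. In WT mice, *Cry1* had a log2 fold change of -0.48 (SE 0.193, unadjusted P = 0.0291), *Per3* of -0.53 (SE 0.237, unadjusted P = 0.0438) and *Clock* of 0.22 (SE 0.0992, unadjusted P = 0.0473), with adjusted P from 0.610 to 0.681 in edgeR. *Per3* was 51.9, 61.7 and 54.3 CPM with AAV-GFP and 34.5, 44.3 and 37.1 CPM with AAV-PRDM16, without overlap. *Clock* and *Dbp* did not overlap either, so that 3 of 10 members stood where 14.2% of all genes did. At an unadjusted P under 0.05 edgeR marked 3 members and 7.29% of all genes, and at an FDR of 0.05 it marked no member and 0% of all genes.

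In KO mice no member had groups that did not overlap or an unadjusted P under 0.05 in edgeR, where 9.43% and 6.41% of all genes had, and at an FDR of 0.05 again 0% of all genes were called. The interaction of genotype and virus had an unadjusted P under 0.05 for *Per3* alone (log2 difference of the fold changes 0.73, SE 0.335, unadjusted P = 0.0491, adjusted P = 1.0), where 3.19% of all genes were marked and 0% passed the FDR. The effects of the virus in WT and KO mice were thus not shown to differ for any member.

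Averaged over both viruses, KO mice had a log2 fold change of -0.29 in *Nr1d1* (SE 0.131, unadjusted P = 0.0488, adjusted P = 0.270). It was the only member with an unadjusted P under 0.05 in edgeR, where 18.3% of all genes were marked. No member passed the FDR of 0.05, which 2.18% of all genes passed. Averaged over both genotypes, AAV-PRDM16 gave a log2 fold change of -0.30 in *Cry1* (SE 0.136, unadjusted P = 0.0479, adjusted P = 0.540). That again was the only one marked, where 9.09% of all genes were marked and 0.037% passed the FDR of 0.05.

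Around the core stand 20 clock partners and outputs, all of which were tested: repressors and receptors such as *Cry2*, *Rora*, *Bhlhe40* and *Ciart*, the D-box factors *Tef*, *Hlf* and *Nfil3*, kinases, and output enzymes such as *Nampt*. None passed an FDR of 0.05 in any of the 8 comparisons in edgeR or DESeq2. In the untreated cohort 3 of the 20 had an unadjusted P under 0.05, all lower in KO, near the share of all genes, of which 15.9% had such a P and 10.9% were lower with it. *Hlf*, a D-box activator of the family of DBP, was 47.5, 51.5, 22.4, 35.3 and 46.6 CPM in WT and 16.5, 16.4, 21.1, 20.5 and 19.4 CPM in KO mice. No KO mouse reached the lowest WT mouse, and the log2 fold change was -1.11 (SE 0.245, unadjusted P = 0.000603, adjusted P = 0.305 in edgeR). *Nampt*, the rate-limiting enzyme of NAD salvage, had a log2 fold change of -0.96 (SE 0.331, adjusted P = 0.305) and *Cipc*, an inhibitor of CLOCK, of -0.54 (SE 0.243, adjusted P = 0.310). The median over the list was -0.35, beside 0.04 over all genes. With AAV, *Hlf* ran from 36.7 to 72.5 CPM in all groups with overlap, and 1 of the 20 genes, *Nampt* in KO against WT with AAV-PRDM16, had an unadjusted P under 0.05 (log2 fold change 0.35, SE 0.149, adjusted P = 0.328).

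Clock transcripts in peripheral tissues also answer to temperature, feeding and glucocorticoids, and 13 genes known to respond to these were examined beside them. Averaged over both viruses, 2 of the 13 passed the FDR of 0.05 in edgeR, which 2.18% of all genes passed, and both were higher in KO. *Fkbp5*, which encodes a co-chaperone of the glucocorticoid receptor and is induced by it, was 2.78, 6.47 and 3.65 CPM in WT + AAV-GFP and 1.26, 3.12 and 4.30 CPM in WT + AAV-PRDM16. It was 13.0, 20.1 and 15.1 CPM in KO + AAV-GFP and 11.7, 19.3 and 20.5 CPM in KO + AAV-PRDM16. Every KO mouse exceeded every WT mouse, with a log2 fold change of 2.23 (SE 0.294, edgeR adjusted P = 0.00811). Macrophage markers moved with genotype under each virus. Their sum was 133 to 334 CPM in KO + AAV-GFP against 51.2 to 115 CPM in WT + AAV-GFP, and 65.2 to 87.9 CPM in KO + AAV-PRDM16 against 37.9 to 48.3 CPM in WT + AAV-PRDM16, with none of the 7 markers at 0 in any library. Their part in the *Fkbp5* and *Zbtb16* values was not tested. *Zbtb16*, a transcription factor gene also induced by glucocorticoids, rose by a log2 fold change of 1.99 (SE 0.408, edgeR adjusted P = 0.0325). The call for *Zbtb16* was lost, with an adjusted P of up to 0.0911, when any of 10 of the 12 libraries was left out on its own, all but mouse 2 of WT + AAV-GFP and mouse 1 of KO + AAV-GFP. DESeq2 called 4 of the 13 in this comparison, and the median log2 fold change of the list was 0.20, beside 0.01 over all genes.

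Within each virus none of the 13 passed in edgeR, while an unadjusted P under 0.05 was seen for 1 with AAV-GFP, where 9.18% of all genes had one, and for 4 with AAV-PRDM16, where 13.7% had. Of these 4, 3 were higher in KO, as were 6.92% of all genes. *Fkbp5* had a log2 fold change of 1.90 with AAV-GFP (SE 0.409, adjusted P = 0.182 in edgeR and 4.84e-04 in DESeq2) and 2.57 with AAV-PRDM16 (SE 0.422, adjusted P = 0.0607 in edgeR and 1.13e-07 in DESeq2). *Zbtb16* with AAV-GFP was 34.0, 50.6 and 90.3 CPM in KO and 18.3, 59.9 and 8.66 CPM in WT mice, with overlap and a log2 fold change of 1.01 (SE 0.561, edgeR adjusted P = 0.647). With AAV-PRDM16 it was 90.5, 87.5 and 83.9 CPM in KO and 6.98, 11.0 and 15.4 CPM in WT mice, a log2 fold change of 2.97 (SE 0.601, edgeR adjusted P = 0.0909). The fitted change of *Zbtb16* in KO was thus larger with AAV-PRDM16 than with AAV-GFP, by 1.96 on the log2 scale (SE 0.796, unadjusted P = 0.0294), and this interaction did not pass the adjustment in edgeR. AAV-PRDM16 against AAV-GFP gave a log2 fold change of -1.38 in WT mice (SE 0.57, unadjusted P = 0.0318, edgeR adjusted P = 0.624) and 0.58 in KO mice (SE 0.556). *Tsc22d3*, the gene of the glucocorticoid-induced leucine zipper, was 30.9, 33.2 and 58.0 CPM in KO and 12.0, 21.5 and 23.2 CPM in WT with AAV-PRDM16, a log2 fold change of 1.10 (SE 0.354, edgeR adjusted P = 0.210). Other genes of the list did not share this rise. *Pdk4* with AAV-PRDM16 was 2289, 1980 and 1499 CPM in KO and 2594, 2478 and 2762.5 CPM in WT, lower in KO without overlap. *Angptl4* overlapped there, at 190 to 272 CPM in KO and 192 to 264 CPM in WT, and so did *Sgk1*. *Per1*, itself inducible by glucocorticoids, had a log2 fold change of 0.49 in the KO mice averaged over both viruses (SE 0.26, edgeR adjusted P = 0.350).

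In the untreated cohort *Fkbp5* overlapped between the genotypes. It was 4.38, 2.53, 15.9, 21.0 and 40.2 CPM in WT and 101, 24.5, 15.9, 42.6 and 12.6 CPM in KO mice. WT mice 1 and 2 thus lay below all others, and the library labelled KO mouse 1, with the highest *Arntl*, had the highest value. The log2 fold change was 1.23 (SE 0.729, edgeR adjusted P = 0.380). *Angptl4*, a lipase inhibitor that fasting and glucocorticoids raise, was 215, 194, 250, 319 and 153 CPM in WT and 395, 367, 535, 332 and 619 CPM in KO mice, without overlap, and had a log2 fold change of 0.99 (SE 0.276, edgeR adjusted P = 0.305). Of the heat shock and cold-inducible genes of the list, none had an unadjusted P under 0.05 in this cohort. Averaged over genotype, *Hsph1* (-0.79, SE 0.27) and *Rbm3* (-0.19, SE 0.0858) had unadjusted P of 0.0131 and 0.0468 for the log2 fold change of AAV-PRDM16 against AAV-GFP, with edgeR adjusted P of 0.285 and 0.535.

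**Figure D4:**
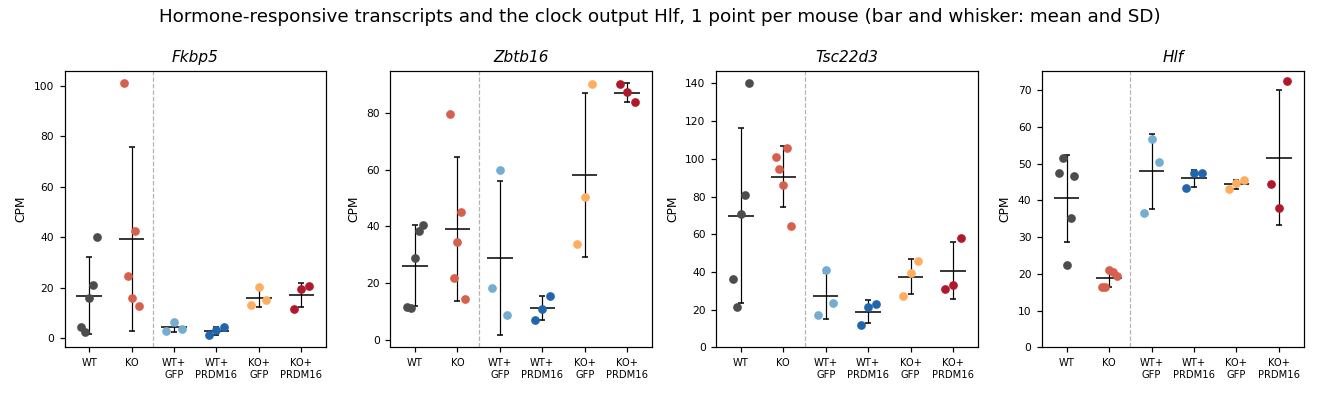
CPM of 3 glucocorticoid-responsive genes, *Fkbp5*, *Zbtb16* and *Tsc22d3*, and of the clock output *Hlf* in the 6 groups, 1 point per mouse (dashed line: untreated cohort left, AAV cohort right; bar and whisker: mean and SD). The 3 are a part of the 13 genes listed. Of that list, *Pdk4*, which was lower in KO with AAV-PRDM16, and *Sgk1* and *Angptl4*, which overlapped there, are not shown. *Fkbp5* is higher in all 6 KO than in all 6 WT mice of the AAV cohort, and *Hlf* is at most 21.1 CPM in the untreated KO mice.

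The genes whose pattern was most like that of *Dbp*, over 8862 genes ranked by Pearson's r across the 22 libraries after centring on group means, were *Srebf1* (0.89), *Thrsp* (0.86), *Slc5a6* (0.86), *Arsa* (0.86) and *Bap1* (0.85). *Arsa* rests on the untreated mice, with 0.94 there and 0.36 over the AAV mice, while the other 4 were 0.69 or higher in each cohort. For *Arntl* they were *Rgl1* (0.83), *Prpf39* (0.82), *Iws1* (0.80), *Plekhg1* (0.79) and *Pde7a* (0.79). In the same measure *Arntl* and *Dbp* had -0.82, so genes outside the list were as closely related to either of them. The relation of the pair was not set beside those of all gene pairs. Among the other members, *Per3* was nearest to *Dbp* with 0.66 and *Clock* nearest to *Arntl* with 0.53. These coefficients are a description, and all points share library depth and scaling. *Nr1d2* gave opposite signs by cohort against *Dbp*, with -0.74 over the untreated and 0.71 over the AAV mice. Against *Arntl* it gave 0.73 over the untreated and -0.57 over the AAV mice.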

How the data were processed

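BAT RNA of 22 mice was sequenced as mRNA libraries, 1 per mouse. The authors deposited raw counts, whole numbers of reads on each of 55487 Ensembl genes, in a table per cohort. The submitters' processing notes name bcl2fastq 2.20, Trimmomatic 0.36, HISAT2 and the genome build GRCm38.p6. The counting tool, annotation release and handling of strand and duplicates are not given in the sources used here. Groups and mouse numbers came from the sample labels, and symbols and exon lengths from GENCODE M21 of GRCm38, which matched 55141 genes.

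The filterByExpr function of edgeR 4.0.16 (R 4.3.3) kept 17869 genes of the untreated cohort and 18899 of the other. After TMM scaling they were tested by the quasi-likelihood method of edgeR, two-sided, and P-values were adjusted by Benjamini-Hochberg over all genes kept. Each cohort had its own fit over all its libraries, with common dispersions of 0.312 and 0.0887. CPM are counts per 1000000 on the genes tested, TMM-scaled, and log2 CPM used a prior count of 2. Totals were 55320927 counts or more per library, and *Npas2* and *Arntl* were the members with the fewest reads. A count of 0 allows up to 3 counts, for counting error only. Correlations were tested with 100000 permutations, or all of them for under 10 mice and within groups (SciPy 1.17.1). The steps were tested on simulated data.

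For each comparison, members past an FDR of 0.05 were named with their statistics, or else up to 3 with the smallest unadjusted P under 0.05, and likewise for the lists. *Clock* in the untreated cohort, *Arntl* with AAV-GFP, *Dbp*, *Nr1d2* in the AAV cohort and *Per1* were added after their values were seen. Genes ranked for likeness had a mean of at least 5 CPM in both cohorts. The members and lists were chosen with earlier results of these data known. Alternatives were DESeq2 1.42.0, limma-voom (limma 3.58.1), RLE scaling, no count filter, a replicate block, the groups compared alone, the study's threshold, each library left out, untreated WT mice 1 and 2 left out, and a covariate for Y-linked transcripts.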

Additional observations from a re-analysis of the deposited data

Results flagged for a closer look

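Among 28 sets of values of 1 gene in 1 group screened for a mouse far from the others, 2 stood out, and chance sets apart about 1 in 20 such groups. *Npas2* in untreated KO mouse 5 was 0.338 CPM, against 0.496 CPM in the nearest mouse of the group. This is also the mouse with the lowest *Arntl*, at 0.589 CPM. *Per2* in untreated KO mouse 2 was 51.4 CPM, against 31.5 CPM in the nearest mouse. The same mouse had the highest *Per1*, at 151 CPM, the largest TMM factor of the cohort, at 1.47, and a skeletal muscle marker sum of 6513 CPM. The part of these in the *Per2* value was not tested.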

How the results depend on the processing

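The number of clock genes called at an FDR of 0.05 was 0 under all alternatives run except the study's own threshold, which called 2 in the untreated cohort. In all 140 checks the median log2 fold change of the members moved by less than 0.54 (untreated) or 0.42 (AAV). These are the median SDs between mice of a group, a bound too wide to show that the medians are stable. The untreated median ran from -0.378 to 0.0454 and that of the interaction from -0.109 to 0.265. In each comparison the median took both signs over the alternatives. The correlation of *Arntl* and *Dbp* in the untreated cohort fell short of the threshold without the 2 mice farthest from the median *Arntl* (r = -0.69) and as Spearman's rho (-0.73, adjusted over 6 correlations). It stayed between -0.93 and -0.83 with single mice left out. In the AAV cohort it stayed between -0.86 and -0.72 under all alternatives run. The correlations that had not passed changed sign in 9 cases. *Arntl* with *Npas2* in the AAV cohort was -0.01 with a prior count of 0.5 (r = -0.00809) and ran from -0.0368 to 0.259 with single mice left out. *Arntl* with *Nr1d1* in the AAV cohort was 0.109 centred on group means and ran from -0.203 to 0.225 with single mice left out, and in the untreated cohort it ran from -0.620 to 0.121, the last without KO mouse 5. No pairing by equal mouse number was seen. Deviations of same-numbered mice correlated from -0.292 to 0.111 over 5 pairs in the untreated and from -0.0912 to 0.154 over 18 pairs in the AAV cohort. Other groupings of the mice, such as litters or days of collection, were not tested. With the replicate block 0 clock genes were called in each comparison, and *Fkbp5* in KO against WT with AAV-PRDM16 had an adjusted P of 0.0142 in edgeR. Depth limits *Npas2*, whose counts in the AAV cohort ran from 0 to 92 reads.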
